A study of Mus musculus with 4 samples.

Results

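The subject is 10 chemokine genes of mouse liver after knockdown of the transcription factor Cux2: Cxcl1, Cxcl2, Cxcl9, Cxcl10, Cxcl11, Cxcl12, Cxcl13, Cxcl16, Ccl2 and Ccl5. They were chosen by gene name, with earlier results of these data known. Their probes were found through the RefSeq accession that the array files give for each probe. Of the 10 genes, 9 had a matching probe, and all 9 were among the 25092 genes tested. Of these 25092, 13829 carried a gene symbol. The rest were array identifiers that matched no symbol, each counted as a gene in every share, rank and adjusted p below. No probe accession matched Cxcl11, which the mouse gene table lists as a transcribed pseudogene, so no value is given for it. Probes were not looked up by the array's own gene names, so this does not show that the array lacks a Cxcl11 probe. Every reported probe of the 9 genes was well above background in all 8 channel readings (a treated and a control channel on each of 4 arrays), so no chemokine entered the test through 1 group alone.

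The livers came from female CD-1 mice, an outbred stock, that were 8 weeks old. Groups were mice given Cux2 small interfering RNA (siRNA) and killed after 5 days (5 mice in 2 pools, of 3 mice in replicate 1 and 2 mice in replicate 2), mice given Cux2 siRNA and killed after 8 days (4 mice in 2 pools of 2), and mice given a non-specific siRNA. The study's design text counts 13 such control mice in 2 pools, of 6 or 7 animals, whereas each array's own label gives 6. Each array set 1 treated pool against 1 control pool in 2 colours, with the treated RNA in Alexa 647 in replicate 1 and in Alexa 555 in replicate 2 of each day. All animals had received an siRNA, pools stand in for single animals, and the same 2 control pools served both days; the sources used here do not give which of them each array carried, nor when the control mice were killed. Replicate number, dye orientation and, possibly, control pool therefore cannot be told apart. The p-values measure only the spread between arrays, which differ in treated pool and in dye orientation. The fit took the 4 arrays as independent. Deviations of same-numbered arrays from their day means correlated at 0.50 across genes, and the SEs over both days make no allowance for that. Ratios are log2 of Cux2 siRNA over non-specific siRNA. No group without siRNA was measured. "Fell" and "rose" below therefore mean lower or higher than in the non-specific siRNA pools, and a change in those pools cannot be told apart from one in the treated pools. Channel levels are on a log2 intensity scale after normalization, and are comparable between arrays for 1 probe but not between probes. The threshold was an adjusted p (Benjamini-Hochberg) of 0.05 over all 25092 genes, from 1 limma fit of the 4 arrays.

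Chemokines are small secreted or membrane-bound proteins that guide leukocytes through G protein-coupled receptors, and their CC and CXC names describe the spacing of their first conserved cysteines. Cxcl9, Cxcl10 and Cxcl11 are induced by interferon and draw activated T cells and NK cells through Cxcr3. Cxcl1 and Cxcl2 draw neutrophils through Cxcr2 and are classical NF-kB targets, whereas Cxcl12 is made constitutively by stromal and endothelial cells and holds cells that carry Cxcr4. In liver, hepatocytes, Kupffer cells (the resident macrophages), endothelium and stellate cells can all make chemokines.

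The upstream sequences of 4 CXC genes on chromosome 5 are printed because the interferon-induced pair had the lowest ratios of the listed chemokines, while the neutrophil-attracting pair did not pass on either day. Each is the 250 bases before the annotated start, 5′ to 3′ on the gene's strand, from RefSeq on GRCm38.p6. Capitals mark matches, on either strand, to GAAANNGAA (the core of an interferon-stimulated response element without its last base), TTCNNNGAA (the core of an interferon gamma activated site), GGGNNTTNC (the core of an NF-kB site without its last base) and TATAAA (the core promoter element that binds TBP).
Cxcl9, chr5:92328080-92328329, minus strand: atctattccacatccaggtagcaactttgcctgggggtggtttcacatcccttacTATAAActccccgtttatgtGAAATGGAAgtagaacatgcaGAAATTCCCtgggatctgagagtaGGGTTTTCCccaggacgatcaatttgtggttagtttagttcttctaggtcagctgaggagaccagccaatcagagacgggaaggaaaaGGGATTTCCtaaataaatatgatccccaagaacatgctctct
Cxcl10, chr5:92348890-92349139, minus strand: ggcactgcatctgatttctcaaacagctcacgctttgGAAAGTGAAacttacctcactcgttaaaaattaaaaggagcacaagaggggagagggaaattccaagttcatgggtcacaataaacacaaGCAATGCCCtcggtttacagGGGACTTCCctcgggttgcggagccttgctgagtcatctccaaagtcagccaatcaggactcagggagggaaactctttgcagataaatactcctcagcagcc
Cxcl1, chr5:90890995-90891244, plus strand: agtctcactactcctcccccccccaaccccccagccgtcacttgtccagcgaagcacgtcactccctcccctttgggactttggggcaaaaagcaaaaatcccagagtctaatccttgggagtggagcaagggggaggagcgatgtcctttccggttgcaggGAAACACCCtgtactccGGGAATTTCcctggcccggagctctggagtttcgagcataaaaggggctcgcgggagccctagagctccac
Cxcl2, chr5:90903649-90903898, plus strand: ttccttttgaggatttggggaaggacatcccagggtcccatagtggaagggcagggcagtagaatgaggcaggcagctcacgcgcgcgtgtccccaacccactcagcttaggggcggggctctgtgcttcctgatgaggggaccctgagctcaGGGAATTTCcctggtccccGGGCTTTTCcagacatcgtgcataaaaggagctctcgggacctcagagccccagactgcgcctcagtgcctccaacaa
GAAANNGAA occurred in the windows of Cxcl10, as GAAAGTGAA beginning 213 bases before the start, and of Cxcl9, as GAAATGGAA beginning 175 bases before it, and in none of the other chemokine windows held (Cxcl1, Cxcl2, Cxcl12 and Cxcl13). Over all 32851 windows of the same length, 7.13% held it. GGGNNTTNC occurred in 4 of the 6 chemokine windows, those of Cxcl9, Cxcl10, Cxcl1 and Cxcl2, each at more than 1 place, against 13.0% of all windows. Cxcl1 and Cxcl2 shared the letters GGGAATTTC, which began 71 bases before the start of Cxcl1 and 97 bases before that of Cxcl2, and Cxcl10 held GGGACTTCC at 103 bases. TTCNNNGAA, which 7.02% of all windows held, occurred in 0 of the 6, and TATAAA, in 12.4% of all windows, occurred in Cxcl9 and Cxcl13. No match overlapped another in these windows. A match is a description of the letters in the window and not evidence of a bound site. Windows for Cxcl11, Cxcl16, Ccl2 and Ccl5 were not analysed here.

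The targeted gene and the whole arrays are given in brief. Cux2, a homeobox factor expressed far more in female than in male mouse liver, had ratios of -1.91 and -1.70 at day 5 and -1.07 and -1.20 at day 8, with the Cux2 siRNA channel the lower one each time. It fell by 1.81 at day 5 (SE 0.09, limma adjusted p = 0.00298) and by 1.13 at day 8 (SE 0.09, limma adjusted p = 0.007), where the call was lost without day 8 replicate 2 (limma adjusted p = 0.0651). The array-wide background was high: 16.8% of all genes passed at day 5, 14.3% at day 8 and 31.1% over both days, and the median of all genes was 0.00 on both days. The 6 hepatocyte markers measured, among them Alb, Apoa1 and Ttr, were well above background in all 8 readings. Over both days 2 of them were lower, against 16.3% of all genes, and 0 higher, against 14.8% (median -0.13). Alb did not pass and split by replicate number, with ratios of 0.82 and -0.77 at day 5 and 0.91 and -0.64 at day 8. The 10 exocrine pancreas markers set 1 array apart from the rest, with median ratios of -2.69 and -3.55 at day 5 and of 0.58 (replicate 1) and -3.50 (replicate 2) at day 8. No array was left out for this, and the calls of Cux2, of the listed chemokines and of the gene lists below were recomputed without each array in turn.

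Of the 9 chemokines, 5 were lower at day 5 (Cxcl9, Cxcl10, Cxcl13, Cxcl16 and Ccl2), against 9.43% of all genes tested, and 0 were higher, against 7.38%. At day 8, 3 were lower (Cxcl9, Cxcl10 and Ccl2), against 8.05% of all genes, and 0 were higher, against 6.27%. Over the 4 arrays together 6 were lower (the day 5 genes and Ccl5), against 16.3% of all genes, and 0 were higher, against 14.8%. The same 6 had all 4 treated levels under all 4 control levels, as did 15.4% of all genes, and 0 had all treated levels above, as did 13.9%. The day 8 minus day 5 difference passed for 0 chemokines and for 0% of all genes. In limma, 620 genes had an unadjusted p under 0.05, fewer than the share of 0.05 of all genes that p-values without any difference would give. In whole tissue, fewer cells of a type and less RNA per cell cannot be told apart.

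**Figure D1:**
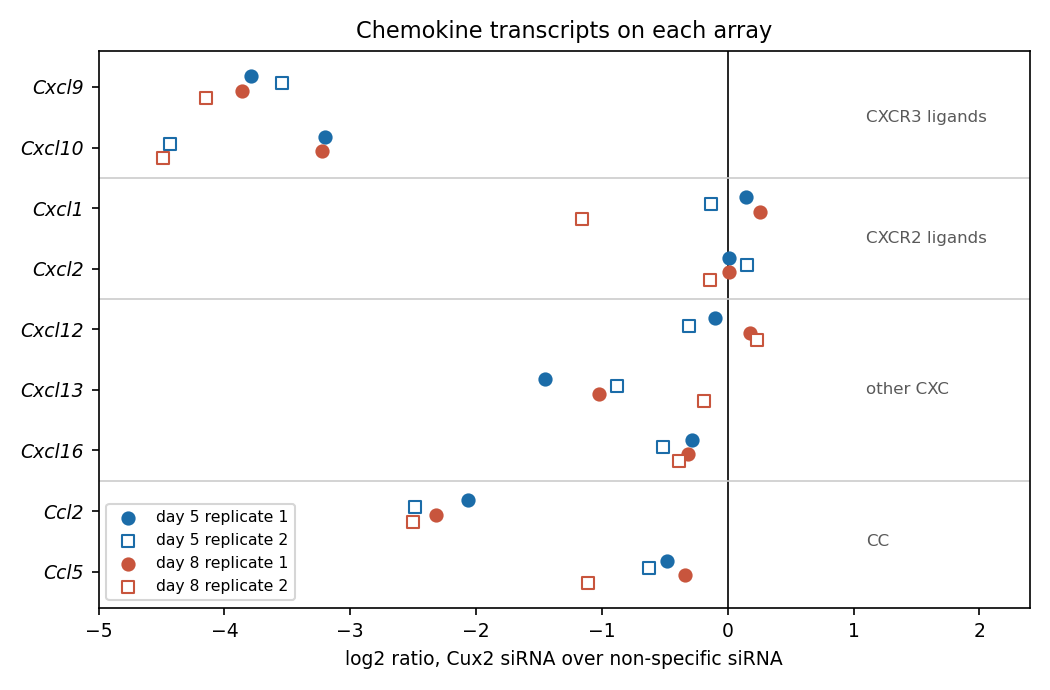
Log2 ratio of Cux2 siRNA over non-specific siRNA (horizontal axis) for the 9 chemokines (vertical axis), with 1 point for each of the 4 arrays by day and replicate and grey rules between the groups of receptors' ligands. Cxcl9 and Cxcl10 lie below -3 on every array and Ccl2 at or below -2.06, while Cxcl1, Cxcl2 and Cxcl12 have arrays on both sides of 0.

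Cxcl9, the chemokine most tightly tied to interferon gamma, had channel levels of 12.01 and 12.10 at day 5 and 11.98 and 11.57 at day 8 in Cux2 siRNA pools, against 15.80, 15.65, 15.84 and 15.72 in the non-specific siRNA pools of the same arrays. The groups were more than 3 log2 units apart, and the control levels were almost level across arrays. Its ratios were -3.79 and -3.54 at day 5 and -3.86 and -4.15 at day 8. Cxcl9 fell by 3.67 at day 5 (SE 0.11, limma adjusted p = 0.00181) and by 4.00 at day 8 (SE 0.11, limma adjusted p = 0.00155). Over both days the treated pools held 7.00% of the control level, a 14.3-fold difference (mean -3.84, SE 0.08, limma adjusted p = 0.000308), and Cxcl9 ranked 16 from the lowest of all 25092 genes. The day 8 minus day 5 difference was -0.34 (95% interval -0.74 to 0.06, adjusted p = 1.00).

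Cxcl10, which shares the receptor Cxcr3, had levels of 9.81 and 10.37 at day 5 and 9.79 and 10.15 at day 8 in Cux2 siRNA pools, against 13.01, 14.80, 13.01 and 14.63 in the control pools of the same arrays. The treated levels lay close together, and the control levels split by replicate number: both replicate 2 controls were higher than both replicate 1 controls. The ratios followed that split, at -3.20 and -4.43 at day 5 and -3.23 and -4.49 at day 8. The mean was the same as for Cxcl9, at -3.84 over both days (14.3-fold lower, SE 0.29, limma adjusted p = 0.00232), and the SE was larger. At day 5 Cxcl10 fell by 3.81 (SE 0.41, limma adjusted p = 0.0102) and fell by 3.86 at day 8 (SE 0.41, limma adjusted p = 0.0112). Without day 5 replicate 2 the day 5 call was lost (-3.20, limma adjusted p = 0.0703), and without day 8 replicate 2 the day 8 call was lost (-3.23, limma adjusted p = 0.0715). The day 8 minus day 5 difference was -0.04 (95% interval -1.55 to 1.46).

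**Figure D2:**
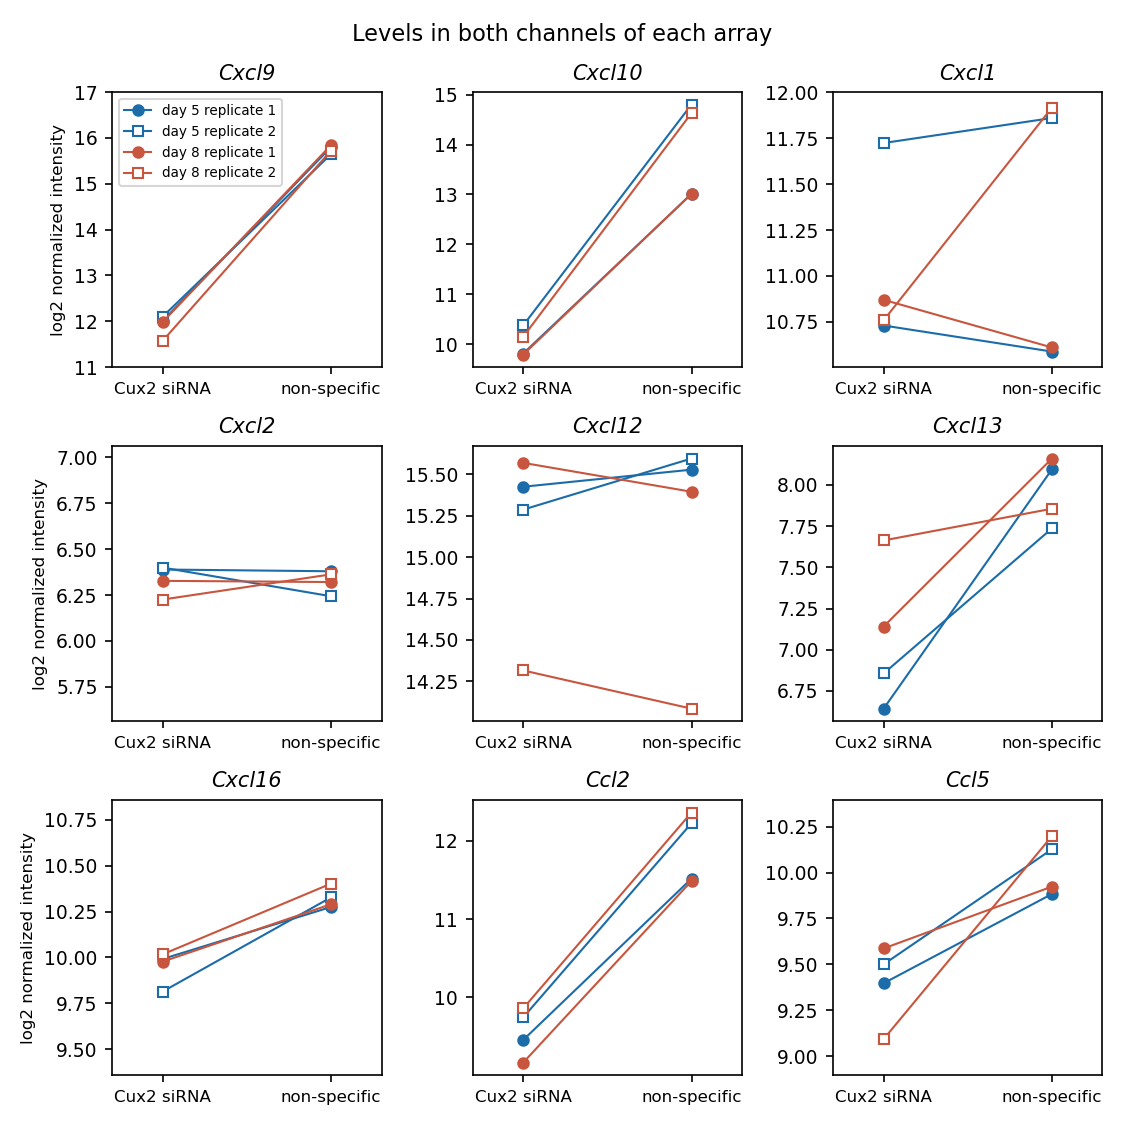
Normalized channel level (vertical axis, log2 intensity, a separate scale in each panel) of 9 chemokines in the treated and the control channel of each array, with a line joining the channels of 1 array. The Cxcl9 and Cxcl10 lines are steep on all 4 arrays. The control points of Cxcl10, Ccl2 and Cxcl1 fall into widely spaced pairs by replicate number, and those of Cxcl9, Cxcl13, Cxcl16 and Ccl5 into closer ones.

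Set against the other 7 listed chemokines, the interferon-induced Cxcr3 ligands Cxcl9 and Cxcl10 stood apart. The median ratio of Cxcl9 and Cxcl10 was -3.74 at day 5 and -3.93 at day 8, whereas the median of the other 7 was -0.40 at day 5 and -0.45 at day 8. The gap between the medians was -3.21 and -3.47 on the day 5 arrays and -3.23 and -3.93 on the day 8 arrays. The gap is a description, since members are not replicates, and no test was made of it. The grouping rests on the Cxcr3 ligands and does not mean that the other 7 do not respond to interferon. With Ccl5 counted as interferon-induced, the gap was -3.37 at day 5 and -3.46 at day 8, although Ccl5 itself was at -0.56 and -0.72. Ccl2 lay between the pair and the rest on every array.

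Ccl2, the main attractant of monocytes through Ccr2, had levels of 9.46 and 9.74 at day 5 and 9.17 and 9.86 at day 8 in Cux2 siRNA pools, against 11.52, 12.23, 11.49 and 12.36 in control pools. The groups did not overlap, and replicate 2 was the higher one in both channels of both days. Ratios of -2.06 and -2.48 at day 5 and -2.32 and -2.50 at day 8 gave means of -2.27 at day 5 (SE 0.12, limma adjusted p = 0.00393) and -2.41 at day 8 (SE 0.12, limma adjusted p = 0.00369). Over both days Ccl2 was 5.07-fold lower and left 19.7% of the control level (mean -2.34, SE 0.09, limma adjusted p = 0.000782). Its probe was printed at 10 places on each array, of which 9 or 10 were used per array. These spots had a mean ratio of -2.06 ± 0.15 on day 5 replicate 1 and -2.32 ± 0.28 on day 8 replicate 1 (SD over 9 and 10 spots), against -2.48 ± 0.03 on day 5 replicate 2 and -2.50 ± 0.05 on day 8 replicate 2 (SD over 10 and 9 spots). The replicate 1 spots were the more scattered, and the highest single spot read -1.94. Spots of 1 probe share a pool, so they measure technical scatter only.

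**Figure D3:**
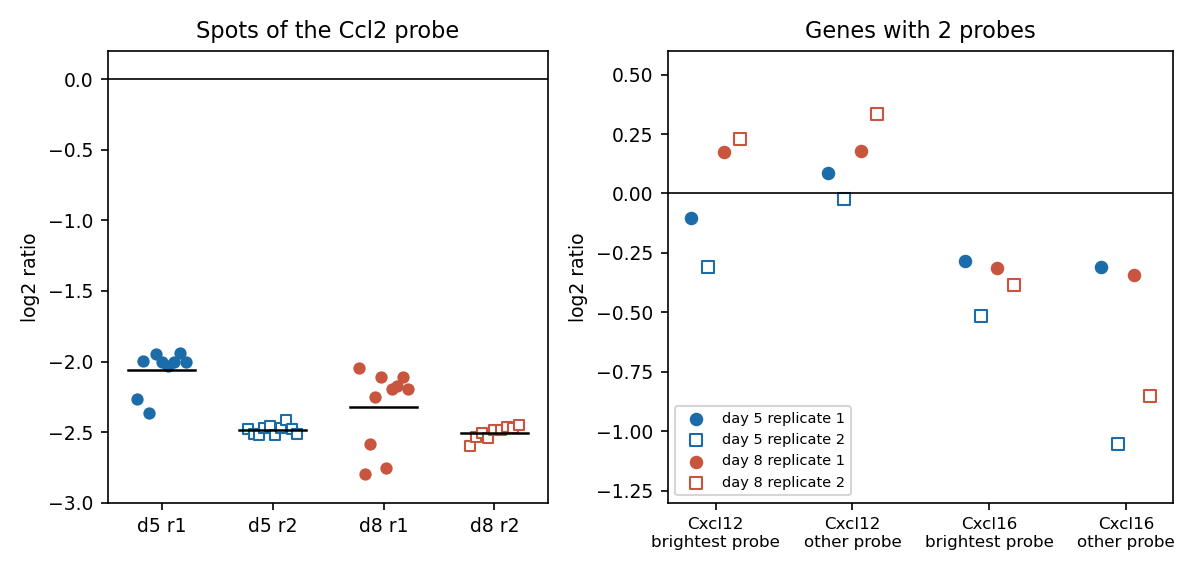
Left, the log2 ratio of each spot of the Ccl2 probe (vertical axis) on each array (horizontal axis), with black bars at the array means. Right, the log2 ratio on each array for the reported and the other probe of Cxcl12 and Cxcl16; all Ccl2 spots lie at or below -1.94, both Cxcl16 probes are below 0 on every array, and the Cxcl12 probes cross 0.

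Ccl5, which attracts T cells and monocytes, had levels of 9.40, 9.50, 9.59 and 9.09 in Cux2 siRNA pools (in the order day 5 replicates 1 and 2, then day 8 replicates 1 and 2), against 9.88, 10.13, 9.92 and 10.20 in control pools. The groups did not overlap, with day 8 replicate 2 the widest apart and day 8 replicate 1 the closest. The ratios of -0.49, -0.63, -0.34 and -1.11 averaged -0.64 over both days (SE 0.13, limma adjusted p = 0.0254), 64.2% of the control level. Neither day passed alone (-0.56 at day 5, limma adjusted p = 0.118; -0.72 at day 8, limma adjusted p = 0.0733). The call over both days was lost without day 5 replicate 1 (limma adjusted p = 0.0692) and without day 5 replicate 2 (limma adjusted p = 0.094), and kept its direction in each case.

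Cxcl13, which draws B cells through Cxcr5, was dim, with levels of 6.64, 6.86, 7.14 and 7.66 in Cux2 siRNA pools in the same order of arrays, against 8.09, 7.74, 8.16 and 7.86 in control pools. No treated level reached the lowest control level, although day 8 replicate 2 came close to it. Its ratios were -1.45, -0.88, -1.02 and -0.19. Cxcl13 fell by 1.17 at day 5 (SE 0.24, limma adjusted p = 0.0385) and by 0.89 over both days (SE 0.17, limma adjusted p = 0.0196), while day 8 alone was -0.61 (limma adjusted p = 0.168). The day 5 call was lost without day 5 replicate 1 (-0.88, limma adjusted p = 0.197) and without day 5 replicate 2 (-1.45, limma adjusted p = 0.117), and the call over both days without day 5 replicate 1 (-0.74, limma adjusted p = 0.0643). The size moved with the background correction, to -1.93 at day 5 with the scanner's processed signals (limma adjusted p = 0.0634) and to -0.44 with no background subtraction (limma adjusted p = 0.113).

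Cxcl16, a membrane-bound chemokine that binds Cxcr6 on T and NKT cells, had levels of 9.99, 9.81, 9.98 and 10.02 in Cux2 siRNA pools, against 10.27, 10.33, 10.29 and 10.40 in control pools. The groups were narrow and did not overlap. The ratios of -0.28, -0.51, -0.31 and -0.39 averaged -0.37 (SE 0.06, limma adjusted p = 0.0124), 77.2% of the control level. Day 5 passed (-0.40, limma adjusted p = 0.0417) and day 8 did not (-0.35, limma adjusted p = 0.0614), and the day 5 call was lost without any 1 of the 4 arrays (limma adjusted p of 0.0679 to 0.291). The call over both days was lost without day 5 replicate 2 (-0.32, limma adjusted p = 0.0579) and without day 8 replicate 2 (-0.36, limma adjusted p = 0.0583). A second, dimmer probe of the same accession read -0.31 and -1.05 at day 5 and -0.34 and -0.85 at day 8. It was in the same direction on every array and larger in replicate 2, with a mean of -0.64.

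The neutrophil attractants did not pass on either day. Cxcl1 had levels of 10.73, 11.72, 10.87 and 10.76 in Cux2 siRNA pools, against 10.59, 11.86, 10.61 and 11.92 in control pools. The groups overlapped, and the control levels again split by replicate number, with 3 treated levels following their array's control and day 8 replicate 2 falling short of it. The ratios were therefore 0.14, -0.14, 0.26 and -1.16, with a mean of -0.22 over both days (SE 0.24, 95% interval -0.85 to 0.40, limma adjusted p = 0.54). Leaving out day 8 replicate 2 gave a mean of 0.13 (limma adjusted p = 0.387), and leaving out day 8 replicate 1 gave -0.58 (limma adjusted p = 0.0213), so its sign and its call both changed with the array left out.

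Cxcl2 had levels of 6.39, 6.40, 6.33 and 6.23 in Cux2 siRNA pools, against 6.38, 6.24, 6.32 and 6.36 in control pools. The levels overlapped fully and lay near the offset added in background correction, which compresses ratios of dim spots. Its mean was 0.01 (SE 0.06, 95% interval -0.14 to 0.16, limma adjusted p = 0.929). That interval holds for this compressed scale.

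Cxcl12, the ligand of Cxcr4, was bright, with levels of 15.43, 15.29, 15.57 and 14.32 in Cux2 siRNA pools, against 15.53, 15.60, 15.40 and 14.08 in control pools. The treated level was under its array's control at day 5 and over it at day 8, and both channels were lowest on day 8 replicate 2. The ratios of -0.10, -0.31, 0.17 and 0.23 gave -0.21 at day 5 (SE 0.08, limma adjusted p = 0.158) and 0.20 at day 8 (SE 0.08, limma adjusted p = 0.172), neither of which passed. The day 8 minus day 5 difference was 0.41 (SE 0.11, unadjusted p = 0.0172, adjusted p = 1.00). A second probe, of accession NM_021704 where the reported one is NM_001012477, read 0.08, -0.02, 0.18 and 0.33, so the day 5 sign on replicate 1 differed between probes.

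**Figure D4:**
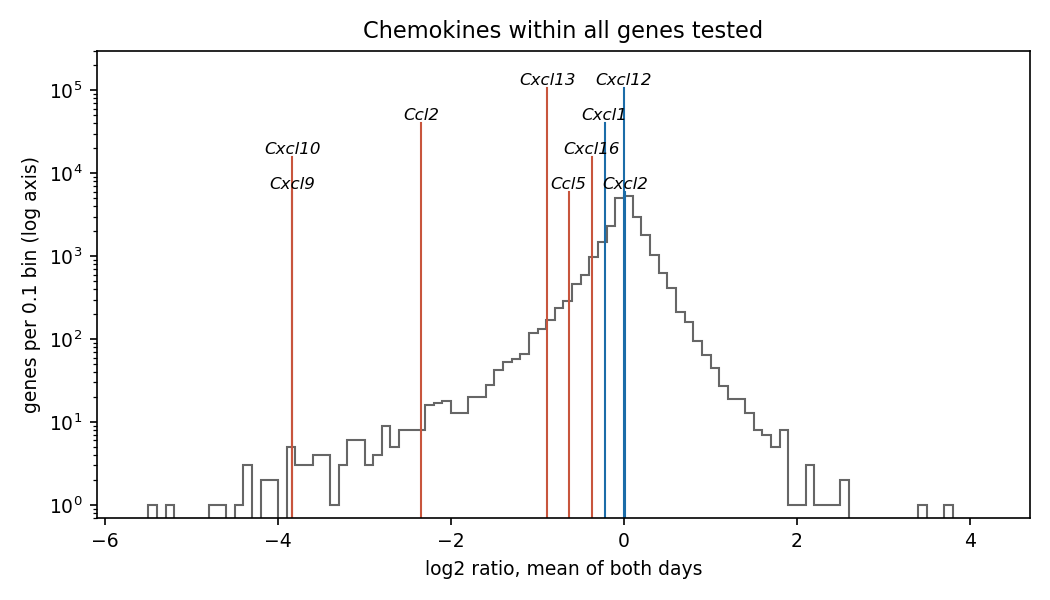
Number of genes (vertical axis, log scale) by mean log2 ratio over both days (horizontal axis, bins of 0.1) for all 25092 genes as an outline, with the 9 chemokines marked by vertical lines, red where they passed and blue where they did not. Cxcl9 and Cxcl10, both at -3.84, and Ccl2, at -2.34, lie in the sparse lower tail, while Cxcl2 and Cxcl12 lie at the centre.

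The genes whose 4 ratios were nearest to a called chemokine's were found by Euclidean distance over the 4 arrays, among 13829 tested genes with a symbol. For Cxcl9 they were Gbp2, an interferon-inducible GTPase (distance 0.73), Oasl2, an oligoadenylate synthetase-like protein (0.81), and Rsad2, the antiviral enzyme viperin (0.82). For Cxcl10 they were Gbp4 (0.31), the serum amyloid Saa3 (0.36) and the GTPase Igtp (0.66), each with the lower ratio in replicate 2 of both days. Cxcl9 lay 1.28 from Cxcl10, farther than each gene's 3 nearest. For Ccl2 the nearest were Uba7, the activating enzyme for ISG15 (0.18), Spats2l (0.19) and Ms4a4c (0.26). For Cxcl13 they were Retnlg, also in the neutrophil marker list (0.24), Abcd2 (0.35) and Thbs4 (0.46), for Cxcl16 they included Cln6 (0.05) and Tbata (0.07), and for Ccl5 they were Atp11a (0.08), Slc39a11 (0.18) and the death receptor Fas (0.18). Likeness over 4 arrays is a description and carries no test.

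Outside the 10 listed genes, 27 further chemokines were looked up, of which 23 were tested. Over both days 8 were lower, against 16.3% of all genes, and 1 was higher, against 14.8%. Their median was -0.22, against 0.00 for all genes. Ccl12, a monocyte attractant of the mouse, fell by 2.72 (SE 0.16, limma adjusted p = 0.00161) with array ratios of -2.37, -3.02, -2.38 and -3.09. Ccl7, another Ccr2 ligand, fell by 2.16 (SE 0.10, limma adjusted p = 0.00107), and Ccl8 fell by 2.02 (SE 0.17, limma adjusted p = 0.00295). The eosinophil attractant Ccl24 (-1.43), the Ccr7 ligand Ccl19 (-1.25) and Cxcl14 (-0.95) were also lower, and Ccl27a was the 1 that rose (0.50, SE 0.06, limma adjusted p = 0.00622).

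In the gene order of the RefSeq table, Ccl2, Ccl7, Ccl11, Ccl12, Ccl8 and Ccl1 follow each other on chromosome 11. Ccl2, Ccl7, Ccl12 and Ccl8 were lower, with means of -2.34, -2.16, -2.72 and -2.02. Between them Ccl11, the eosinophil attractant eotaxin, had ratios of -0.21, -0.10, -0.17 and 0.18 and did not pass (mean -0.07, limma adjusted p = 0.522). Ccl1 was not well above background in any treated channel, so it has only a bound there. On chromosome 5 the order is Cxcl9, Art3, Cxcl10, Cxcl11, and Cxcl1 and Cxcl2 are neighbours in another part of the chromosome. Probe sequences are not in the files used here, so cross-hybridisation between such related genes was not tested.

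Of 23 chemokine receptors looked up, 20 were tested. Over both days 6 were lower, against 16.3% of all genes, and 0 higher, against 14.8% (median -0.11). Ccrl2, a non-signalling receptor, had the lowest mean (-1.29, limma adjusted p = 0.00632), and Ccr2, the receptor of Ccl2, fell by 1.00 (limma adjusted p = 0.00289). The neutrophil receptor Cxcr2 fell by 0.62 (SE 0.05, limma adjusted p = 0.00244), although its ligands Cxcl1 and Cxcl2 did not pass. Ackr2, a scavenger of CC chemokines (-0.53, limma adjusted p = 0.045), and Ccr9 (-0.21, limma adjusted p = 0.0353) were also lower. Ccr9 lost its call whichever array was left out, and was at -0.05 without background subtraction. Ackr2 kept its call only when day 5 replicate 2 was the array left out. Cxcr3, the receptor of Cxcl9 and Cxcl10, had ratios of -0.13, -0.03, -0.22 and 0.04 and did not pass (mean -0.08, limma adjusted p = 0.384). Cxcr4 (-0.14, limma adjusted p = 0.11), Cxcr5 (0.15, limma adjusted p = 0.0899) and Cxcr6 (0.35, limma adjusted p = 0.212), the receptors of Cxcl12, Cxcl13 and Cxcl16, did not pass either. All 3 passed under another setting: Cxcr6 without day 8 replicate 1 (0.61, limma adjusted p = 0.0117), Cxcr5 with the processed signals (0.58, limma adjusted p = 0.0396) and Cxcr4 with the mean of probes (-0.19, limma adjusted p = 0.0471).

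Of 17 genes of interferon signalling, 16 were tested. Over both days 11 were lower, against 16.3% of all genes, and 0 higher, against 14.8% (median -0.42). Irf7, a transcription factor of the interferon response, fell by 2.54 (SE 0.05, limma adjusted p = 0.000308). The feedback inhibitor Socs1 (-1.97, limma adjusted p = 0.0259), Irf1 (-1.41, limma adjusted p = 0.0151), Irf8 (-1.30, limma adjusted p = 0.032) and the receptor chain Ifnar2 (-0.71, limma adjusted p = 0.00186) fell too. Socs1, Irf1 and Irf8 had lower ratios in replicate 2 than in replicate 1 on both days, as Cxcl10 had.

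Of 16 genes of NF-kB, TNF and IL-1 signalling, 15 were tested. Over both days 10 were lower, against 16.3% of all genes, and 0 higher, against 14.8% (median -0.38). The adhesion molecule Vcam1 fell by 1.40 (SE 0.12, limma adjusted p = 0.00302) and the cytokine Il1b by 0.92 (SE 0.05, limma adjusted p = 0.00126). Smaller falls were measured for Birc3 (-0.57), Relb (-0.52), the TNF receptor Tnfrsf1a (-0.48) and Tnf (-0.45), with limma adjusted p-values of 0.0028 to 0.00674. Each of these 6 was below 0 on all 4 arrays. The neutrophil attractants, which also respond to this pathway, were at -0.22 (Cxcl1) and 0.01 (Cxcl2). The sign of Cxcl1 changed with the array left out, and Cxcl2 lay near the offset, where ratios are compressed. The part of this pathway in the chemokine ratios was not tested.

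Of 11 Kupffer cell, macrophage and monocyte markers, 8 were lower over both days, against 16.3% of all genes, and 0 higher, against 14.8% (median -0.59). Their summed level was 15.39 to 16.07 in Cux2 siRNA pools against 16.34 to 16.48 in control pools. A summed level is set mainly by the brightest probes of its list. Marco (-2.84, limma adjusted p = 0.0033) was the lowest. Of the other Kupffer cell markers, Timd4 (-0.80, limma adjusted p = 0.0235), Cd5l (-0.73, limma adjusted p = 0.00622), Adgre1 (-0.54, limma adjusted p = 0.0176) and Clec4f (-0.39, limma adjusted p = 0.011) were lower, and Vsig4 (-0.08, limma adjusted p = 0.39) did not pass. Of 8 neutrophil markers 5 were lower and 0 higher (median -0.44), against the same shares of all genes. Their summed level was 11.46 to 12.07 in Cux2 siRNA pools against 13.66 to 14.15 in control pools. S100a8 (-2.41, limma adjusted p = 0.00339) and S100a9 (-2.50, limma adjusted p = 0.00399) fell most, and Camp (0.02) and Ltf (-0.10) did not pass.

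Of 13 T cell and NK cell markers 8 were lower, against 16.3% of all genes, and 0 higher, against 14.8% (median -0.28). Their summed level was 11.36 to 11.52 in Cux2 siRNA pools against 11.94 to 12.24 in control pools. The granzymes Gzma (-1.30, limma adjusted p = 0.0106) and Gzmb (-1.19, limma adjusted p = 0.0117) fell most, while the T cell receptor chain Cd3e (-0.08, limma adjusted p = 0.437) and Cd4 (0.00, limma adjusted p = 0.987) did not pass. Of 4 B cell markers, 0 were lower and 1 was higher (Cd79b, 0.21, limma adjusted p = 0.0356), with summed levels of 9.49 to 10.08 in Cux2 siRNA pools and 9.54 to 9.66 in control pools. Every marker named here was well above background in all 8 readings. Of the neutrophil list, Ngp was so in 2 readings of Cux2 siRNA pools and 3 of control pools, and Elane was too dim to be tested. Of 10 endothelial markers, 4 were lower and 1 higher, with a median of -0.12. Of 8 stellate cell and fibroblast markers 3 were lower and 3 higher, with a median of -0.09. Both lists stand beside 16.3% lower and 14.8% higher over all genes. The part of these cell types in the chemokine ratios was not tested. With 1 array left out, the number of lower markers was 6 to 9 for the Kupffer cell, macrophage and monocyte list, 4 to 5 for neutrophils, 5 to 6 for T cells and NK cells, 1 to 3 for endothelium and 1 for stellate cells and fibroblasts, and Cd79b lost its call whichever array was left out.

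The other chemokines, the receptors, both signalling lists and the genes nearest to called chemokines together held 54 called genes. All 54 kept their direction in every fit that left out 1 array. Over both days, leaving out replicate 1 ended the calls of 13 genes (the day 5 array) and 7 genes (the day 8 array), and leaving out replicate 2 ended those of 16 (day 5) and 13 (day 8).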

How the data were processed

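Liver RNA pools were measured on 4 Agilent 2-colour mouse arrays from 1 slide and 1 scan. Agilent Feature Extraction 10.7.1.1 produced the scanner files, as their headers record. For the main analysis the deposited intensity values were medians over the pixels of a spot and over those of the background around it, without normalization. An alternative took the deposited processed intensity values, from which, per the file headers, the scanner software had removed background and dye bias. The authors' value table holds log10 ratios, which equalled the scanner's log10 ratios turned to treated over control within 1e-05 for all 45018 features on each array. Median spot signals were 374.5 to 381 (green) and 435 to 459 (red), over background medians of 306 to 308 and 340 to 342, and 0 spots were saturated. The number of arrays limits the precision, with 2 residual degrees of freedom and 2.78 from the prior.

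With limma 3.58.1 in R 4.3.3, normexp (offset 50) corrected the background, log2 ratios were loess-normalized within arrays with control spots (1639) and outlier-marked spots (181 to 298 per array) at weight 0, turned to Cux2 siRNA over control by the labelled dyes, and averaged per probe. Probes were named by RefSeq accession in a GRCm38.p6 gene table (23374 of 41174, or 56.8%, matched), kept when well above background in at least 2 of 8 readings (31760 kept), and the brightest kept probe stood for each gene. lmFit and eBayes estimated both days, their mean and their difference in 1 fit, which was tested on simulated data. Channel levels were taken after Aquantile normalization. The genome build in the headers differs from the gene table's, so array coordinates are not given.

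The chemokines, the gene lists and the tests were chosen with earlier results of these data known. Genes named outside the listed 10 are, from each list, up to 6 with the largest mean change among those past the threshold, those that went against the majority, and the 3 nearest by array ratios to each called chemokine; Ccl11, Ccl1, the receptors Cxcr3 to Cxcr6 and the cell type markers were named for their place or role. Replicate numbers were not taken to pair the arrays, since there are only 2 pairs of numbers. Alternatives were another normalization, background, probe filter and probe summary, the authors' values, the replicate number as a block, and leaving out each array. Some genes that these rules would name are not reported here.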

Additional observations from a re-analysis of the deposited data

Results flagged for a closer look

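Cxcl12 moved in opposite directions on the 2 days, with both day 5 arrays below 0 (-0.10 and -0.31) and both day 8 arrays above 0 (0.17 and 0.23). The difference of day 8 minus day 5 was 0.41 (SE 0.11, limma unadjusted p = 0.0172) and did not pass over all genes (adjusted p = 1.00). The sign of the difference was the same in all 13 alternatives, from 0.31 to 0.51. The fits that left out 1 array, which set that range, and the block fit could not have reversed it, since both day 8 ratios exceeded both day 5 ratios. The second Cxcl12 probe read 0.08 and -0.02 at day 5 and 0.18 and 0.33 at day 8, so its day 5 arrays were on both sides of 0.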

How the results depend on the processing

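Over both days the calls of Cxcl9, Cxcl10, Ccl2 and Cux2 were kept in all 13 alternatives, with ranges of -3.91 to -3.70 (Cxcl9), -4.15 to -3.49 (Cxcl10) and -2.45 to -1.98 (Ccl2), while Cxcl13 lost its call in 3, Cxcl16 in 5 and Ccl5 in 6, always in the same direction. Median centring in place of loess left 5 genes and 0 chemokines called at day 5, 3 genes and 0 chemokines at day 8, and 269 genes and 3 chemokines over both days; Cxcl9 was then -3.69 at day 5 (limma adjusted p = 0.105). Without background subtraction 3 chemokines passed at day 5 and 2104 genes at day 8. With the processed signals 2015 genes and 3 chemokines passed at day 5 and 1476 genes at day 8, and with the authors' values 2014 genes, 3 chemokines and 1467 genes. With the replicate block 8226 genes passed at day 5, and 7449 genes and 6 chemokines at day 8, with Ccl5 (limma adjusted p = 0.0258 at day 5 and 0.0143 at day 8), Cxcl13 (0.00619) and Cxcl16 (0.0185, both at day 8) passing; same-numbered deviations correlated at 0.50 across genes, and the number is also the dye orientation. Leaving out 1 array gave 239 to 3602 genes and 2 to 5 chemokines at day 5, 137 to 2472 genes and 2 to 5 chemokines at day 8, and 3879 to 5502 genes and 4 to 7 chemokines over both days. The gap between interferon-induced and other chemokines kept its sign on both days in every alternative; its change between days ranged from -0.359 to 0.0522 without 1 array. Among single genes, signs reversed only for values that had not passed: Cxcl1 at day 5 (-0.0527 with median centring), Cxcl12 over both days (0.032 with median centring, 0.00159 with scaling between arrays, 0.0562 without background subtraction, 0.00282 with the processed signals or the authors' values, 0.0703 with the mean of probes) and the Cxcl16 difference between days (-0.00159 with the processed signals or the authors' values). Without 1 array, where the day left with 1 array is assumed to vary like the other day, ranges crossed 0 for Cxcl1 (-0.14 to 0.14 at day 5, -1.16 to 0.26 at day 8, -0.58 to 0.13 over both days), Cxcl2 (-0.14 to 0.00649 at day 8, -0.0279 to 0.0453 over both days), Cxcl12 (-0.0531 to 0.0498 over both days), Ccl11 (-0.16 to 0.0143 over both days) and the differences between days of Cxcl10 (-0.671 to 0.588), Cxcl1 (-1.16 to 0.257), Cxcl16 (-0.0657 to 0.164), Ccl2 (-0.35 to 0.0704) and Ccl5 (-0.55 to 0.22). The causes of these shifts were not tested. Aquantile normalization leaves ratios unchanged and so gave no separate values. Of the 54 called genes of the other chemokine, receptor, interferon and NF-kB lists and nearest to called chemokines, all kept their direction in every alternative and 12 kept their call in every one. The 39 called cell type markers kept their direction too, and 37 lost their call with median centring. As noted above, a gene on 1 side of 0 on all 4 arrays keeps its sign in every fit without 1 array. For such genes among the 54 and the 39, that agreement does not measure stability.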
